A study of Mus musculus with 6 samples.

Results

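The meiotic cohesin, synapsis and recombination genes described here are 10 genes whose products join, pair and recombine chromosomes in meiosis: Rec8, Smc1b, Stag3, Sycp1, Sycp2, Sycp3, Spo11, Dmc1, Msh4 and Msh5. They were chosen by name, and their probes were found by matching the RefSeq identifier of each gene probe on the arrays to the gene. Of the 10 genes, 9 had a matched probe, 13 probes in all, among the 18753 genes named on the arrays, and Sycp3 was not analysed here. The samples were TSA and DMSO cultures of mouse embryonic stem cells (strain 129/Ola) that had been left to differentiate in serum-free N2B27 medium and are labelled as day 3 cells. TSA cells had 24 h of trichostatin A, an inhibitor of histone deacetylases, and DMSO cells had 24 h of DMSO, a solvent; the labels give no dose for either. There were 3 independent experiments, each with a TSA and a DMSO sample, and 1 single-colour Agilent array measured the total RNA of each sample. The arrays lay on 3 slides, with the TSA and DMSO samples of the same replicate number on the same slide, always at positions 4 and 3, so treatment and place on the slide cannot be told apart. The comparison asks how expression differed under the deacetylase inhibitor.

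Meiosis reduces the chromosome number, and its first division depends on a physical link between homologous chromosomes. Cohesin rings, in which Rec8, Smc1b and Stag3 take the places of the somatic subunits Rad21, Smc1a and Stag1 or Stag2, hold sister chromatids together and form the base of the chromosome axis. Sycp2 and Sycp3 build on that axis, and Sycp1 spans the gap between paired axes in the synaptonemal complex. Spo11 cuts the DNA, Dmc1 carries out strand exchange with the homologue, and the Msh4 and Msh5 pair stabilises the joined molecules that become crossovers. In mice most of these genes are silent outside germ cells, where promoter DNA methylation and repressor complexes that include E2f6, Mga and histone deacetylases are known to hold many germline genes off.

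Levels below are log2 of the processed signal minus the 75th percentile of the array, a scale on which 0 is the signal that 75% of the gene spots fall under, and a level is compared only with other levels of the same probe. In bulk samples, fewer cells expressing a gene and less RNA per cell cannot be told apart. The 75th percentile was 671, 310 and 884 intensity units on TSA arrays 1, 2 and 3 and 632, 653 and 924 on DMSO arrays 1, 2 and 3, between 61.1% and 72.3% of gene spots lay well above background, and 0 spots were saturated. TSA array 2 stood apart from the rest: it was the dimmest array, and it correlated at 0.931 and 0.939 with the other TSA arrays, while other arrays of the same treatment correlated at 0.984 to 0.990. Where leaving it out moves a difference by over 1.5 times, the value without it is given too. With 3 arrays per treatment, precision is limited by that number.

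Of the 13 probes, 10 passed the filter (well above background on 3 or more arrays) and were tested, which covers 8 of the 10 genes, and 7 of these probes were above background on all 6. No probe passed through its level in 1 treatment alone. Rec8 and Stag3 rose in TSA, 2 of 8 tested genes, and 0 fell (limma, adjusted p under 0.05 over all probes). Over all 14530 tested genes 1.36% rose and 0.0551% fell, and over all 28160 tested probes 0.92% and 0.0355%. With the slide as a block the same 2 members rose and 0 fell, where 3.2% of all tested genes rose and 0.145% fell. All 8 had a higher mean in TSA, as had 58% of all tested genes, with a median difference of 0.58 against 0.08 over all tested genes. The median of the members was 1.39 without TSA array 2 and 0.11 without TSA array 1. The members differ widely in how firm that direction is, since 3 of the 8 had all TSA arrays above all DMSO arrays, which 16.3% of all tested genes had. On every slide 4 were higher in TSA, which 32.5% of all tested genes were. Sycp1 is among these 4 only through a slide 2 value that was not well above background in TSA.

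**Figure D1:**
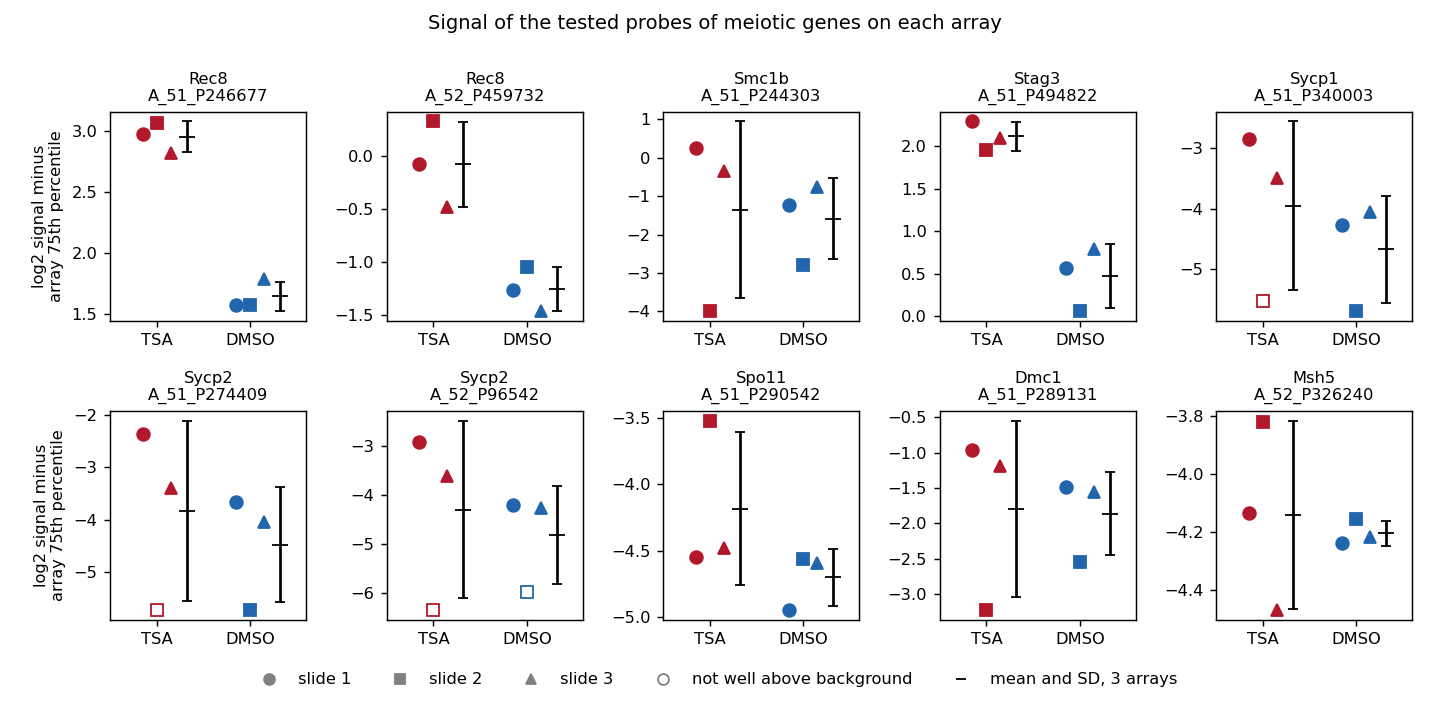
Level of each tested probe on each array, as log2 signal minus the 75th percentile of the array, with TSA left of DMSO, the mean and SD of 3 arrays beside the points, and each panel on its own scale. Rec8 and Stag3 sit in separate ranges by treatment, with means of 2.96 and 2.11 in TSA and 1.64 and 0.47 in DMSO. The slide 2 arrays are the lowest of both treatments for Smc1b, Sycp1, Sycp2 and Dmc1 and, by less, for Stag3.

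Among the cohesin subunits, Rec8 encodes the kleisin that closes the meiotic ring and is cut when chromosomes part. Its brighter probe, A_51_P246677, had levels of 2.98, 3.07 and 2.82 on TSA arrays 1, 2 and 3, against 1.57, 1.57 and 1.78 on DMSO arrays 1, 2 and 3. The lowest TSA level lay more than 1 log2 unit above the highest DMSO level, and the arrays of each treatment lay close together (SD 0.13 in TSA and 0.12 in DMSO, n = 3 each). Rec8 rose by 1.31 ± 0.19 (SE), or 2.49-fold, with an adjusted p of 0.0425 by limma. A dimmer probe of Rec8, A_52_P459732, had levels of -0.08, 0.33 and -0.48 in TSA, against -1.26, -1.05 and -1.47 in DMSO. It gave 1.18 ± 0.27 without passing (limma, adjusted p = 0.121), although its TSA and DMSO levels did not overlap either, so both probes of the gene had the same direction on every slide.

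Stag3 encodes the meiotic counterpart of Stag1 and Stag2, the subunit that binds the kleisin. The levels of its probe, A_51_P494822, were 2.29, 1.96 and 2.09 on TSA arrays 1, 2 and 3, against 0.57, 0.06 and 0.79 on DMSO arrays 1, 2 and 3. The groups were well apart, with TSA above DMSO by 1.71, 1.89 and 1.30 on slides 1, 2 and 3. Stag3 rose by 1.64 ± 0.26, or 3.11-fold (limma, adjusted p = 0.0488). Both adjusted p-values lay close to the threshold, and both calls ended when any 1 array other than TSA array 2 was left out (adjusted p of 0.132 to 0.224 for Stag3 and 0.109 to 0.236 for Rec8), or with each array centred on its median (0.0682 for Stag3 and 0.0733 for Rec8). Without both arrays of slide 2 the differences were 1.51 for Stag3 (adjusted p = 0.0570) and 1.22 for Rec8 (adjusted p = 0.0644), in a fit with 0 calls over all probes.

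Smc1b encodes the meiotic partner of Smc3 in the ring, and its arrays of the same treatment spread more widely than the treatments differed. The levels of its probe, A_51_P244303, were 0.26, -3.99 and -0.34 on TSA arrays 1, 2 and 3, against -1.22, -2.78 and -0.77 on DMSO arrays 1, 2 and 3. In experiments 1 and 3 TSA was above DMSO by 1.48 and 0.42, and in experiment 2 it was below it by 1.21 (-1.21). Over all 6 arrays the difference was 0.23 ± 1.15 (limma, adjusted p = 0.945), with a 95% interval of -2.52 to 2.98. Without TSA array 2 it was 1.55 (adjusted p = 0.262), and without both arrays of slide 2 it was 0.95 (adjusted p = 0.199).

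The promoter sequences of Rec8 and Stag3, the genes that rose, are printed here from 250 bases before to 30 bases after the annotated start, as RefSeq gives them on GRCm38.p6, with 5′ to 3′ along the gene. They lie at chr14:55617916-55618195 (+ strand) for Rec8 and chr5:138280259-138280538 (+ strand) for Stag3. Capitals mark matches on either strand to TCCCGC, the core of the E2F motif, and to CACGTG, an E-box of the kind bound by Mga and Max.
Rec8: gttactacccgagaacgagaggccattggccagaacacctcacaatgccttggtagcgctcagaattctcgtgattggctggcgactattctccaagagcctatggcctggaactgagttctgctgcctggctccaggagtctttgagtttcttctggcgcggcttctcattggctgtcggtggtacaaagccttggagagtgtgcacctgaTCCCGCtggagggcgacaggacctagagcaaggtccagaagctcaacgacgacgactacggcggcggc
Stag3: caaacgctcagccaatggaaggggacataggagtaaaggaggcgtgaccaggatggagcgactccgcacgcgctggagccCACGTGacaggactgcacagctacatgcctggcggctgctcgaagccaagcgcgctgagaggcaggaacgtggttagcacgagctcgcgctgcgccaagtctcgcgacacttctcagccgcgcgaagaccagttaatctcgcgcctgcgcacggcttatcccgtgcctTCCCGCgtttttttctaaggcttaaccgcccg
The Rec8 window has 1 E2F core, which starts 38 bases before the gene start, and the Stag3 window has 1 E2F core across the gene start and 1 E-box that starts 170 bases before it. Rec8 has 16 CpG dinucleotides in this window and Stag3 has 30, and the median over all 32851 promoters in the table is 6.

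Over the 9 members with a promoter in the table, 7 had at least 1 E2F core, which 18.8% of all promoters of that length had, and 3 had an E-box (Stag3, Sycp1 and Sycp3), which 6.79% of all promoters had. Sycp2 and Msh4 had neither motif, and Msh4 had the fewest CpG of the 9 members, 4. In 8 of the 9 the CpG count was above the median of all promoters, and the median of the members was 16. The E2F core holds a CpG itself, so these counts are not independent. The shares are over all 32851 promoters in the table, with a median of 6 CpG, and not over the tested genes. Promoters of like CpG count were not compared. A match shows only that the letters are there, and Smc1b and Dmc1, which have E2F cores too, did not pass the test. The motifs were picked with the expression of these genes known.

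**Figure D2:**
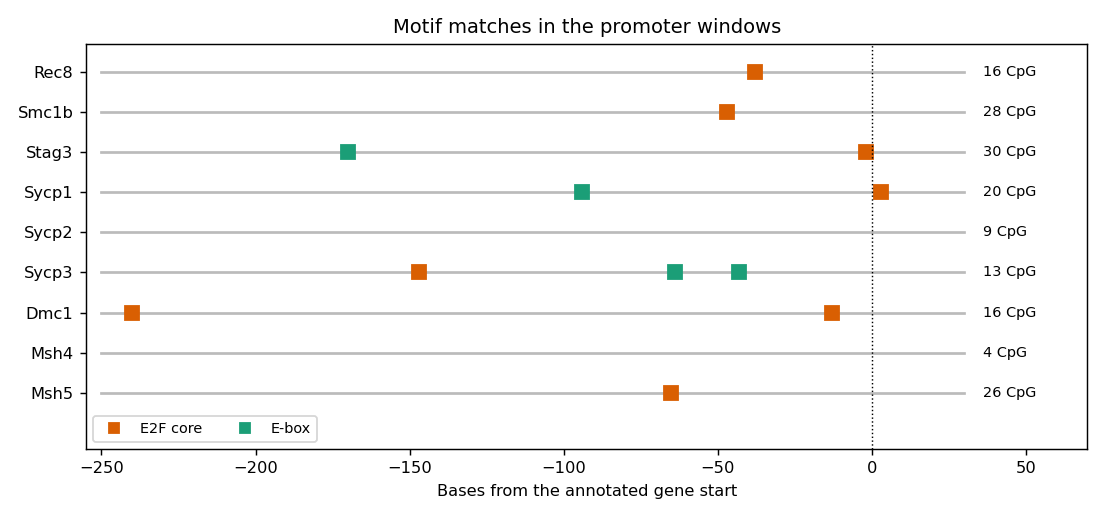
Positions of E2F core and E-box matches, by the first base of the match, along the promoter windows of the 9 members in the table, in bases from the annotated gene start (dotted line), with the number of CpG at the right. The E2F core is present in 7 of the 9 windows and Msh4, with 4 CpG, has no match.

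Among the synaptonemal complex genes, Sycp1 encodes the transverse filament that bridges the paired axes. The levels of its probe, A_51_P340003, were -2.84, -5.53 and -3.49 on TSA arrays 1, 2 and 3, against -4.27, -5.71 and -4.06 on DMSO arrays 1, 2 and 3. The probe was dim: its processed signal was 93.6, 6.69 and 78.5 intensity units in TSA, against 32.6, 12.5 and 55.5 in DMSO, and on TSA array 2 it was not well above background. TSA was the higher on slides 1 and 3, by 1.43 and 0.57. Slide 2 gave 0.17 after scaling, but without a measured TSA side, and the unscaled signal there was lower in TSA. The unscaled signals also carry the brightness of each array, with a 75th percentile of 310 on TSA array 2 against 653 on DMSO array 2. The ranges of the treatments overlapped, with the slide 2 arrays low in both. The difference of 0.72 ± 0.77 did not pass (limma, adjusted p = 0.723), with a 95% interval of -1.11 to 2.56, and without TSA array 2 it was 1.51 (adjusted p = 0.218). In the slide-blocked fit the difference of 0.72 had a smaller error, 0.29, and did not pass either (limma, adjusted p = 0.265).

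Sycp2 encodes a protein of the lateral element, the axis side of the complex, and had 3 probes. The brightest, A_51_P274409, had levels of -2.37, -5.73 and -3.39 in TSA, against -3.65, -5.71 and -4.05 in DMSO. On TSA array 2 it was not well above background, so its slide 2 difference has no measured TSA side. It differed by 1.28 and 0.66 on slides 1 and 3, with 0.64 ± 0.93 over all arrays (limma, adjusted p = 0.792). The second, A_52_P96542, followed the same pattern, with levels of -2.93, -6.34 and -3.62 in TSA, against -4.21, -5.96 and -4.26 in DMSO, and it was not well above background on either slide 2 array. It gave 0.51 ± 0.94 (limma, adjusted p = 0.837). Without TSA array 2 these probes gave 1.59 (adjusted p = 0.286) and 1.54 (adjusted p = 0.249). The third probe of Sycp2, A_51_P265794, was not well above background on any array and was not tested.

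Spo11, which encodes the enzyme that makes the meiotic double-strand breaks, was near the bottom of the measured range. Its tested probe, A_51_P290542, had 28.6, 27.1 and 39.5 intensity units on TSA arrays 1, 2 and 3, against 20.4, 27.6 and 38.4 on DMSO arrays 1, 2 and 3, all well above background by the scanner software. As levels these were -4.55, -3.52 and -4.48 in TSA, against -4.95, -4.56 and -4.59 in DMSO. The treatments did not overlap, but the lowest TSA level and the highest DMSO level were almost equal once scaled. The unscaled signal of slide 2 was slightly lower in TSA, where the 75th percentile of the array was 310 against 653 in DMSO. Spo11 gave 0.52 ± 0.33 (limma, adjusted p = 0.606), and 0.18 without TSA array 2. Its other probe, A_52_P660477, was above background on 0 TSA arrays and 1 DMSO array and was not tested.

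Dmc1 encodes the recombinase that pairs a broken strand with the homologue. The levels of its probe, A_51_P289131, were -0.96, -3.23 and -1.19 on TSA arrays 1, 2 and 3, against -1.49, -2.55 and -1.56 on DMSO arrays 1, 2 and 3. As with Smc1b, TSA was above DMSO on slides 1 and 3, by 0.53 and 0.37, and below it on slide 2 (-0.69). Overall the difference was 0.07 ± 0.64 (limma, adjusted p = 0.970), with a 95% interval of -1.47 to 1.61, and its sign turned with median centring (-0.01). Without TSA array 2 it was 0.79 (adjusted p = 0.319).

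Msh5, a MutS homologue that acts with Msh4 on crossovers, had dim signal that varied little. The levels of its probe, A_52_P326240, were -4.13, -3.82 and -4.47 on TSA arrays 1, 2 and 3, against -4.24, -4.16 and -4.22 on DMSO arrays 1, 2 and 3. The treatments overlapped, and the difference of 0.06 ± 0.23 (limma, adjusted p = 0.921) had a 95% interval of -0.49 to 0.61, the narrowest among the members that were not called. Its sign depended on the scaling, and it was negative with quantile normalization and with the authors' deposited values, and without TSA array 2 it was -0.10 (adjusted p = 0.814). The Msh4 probe, A_51_P288855, was not well above background on any of the 6 arrays, with 2.82 to 6.58 intensity units in TSA and 2.88 to 5.15 in DMSO, so no fold is given.

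**Figure D3:**
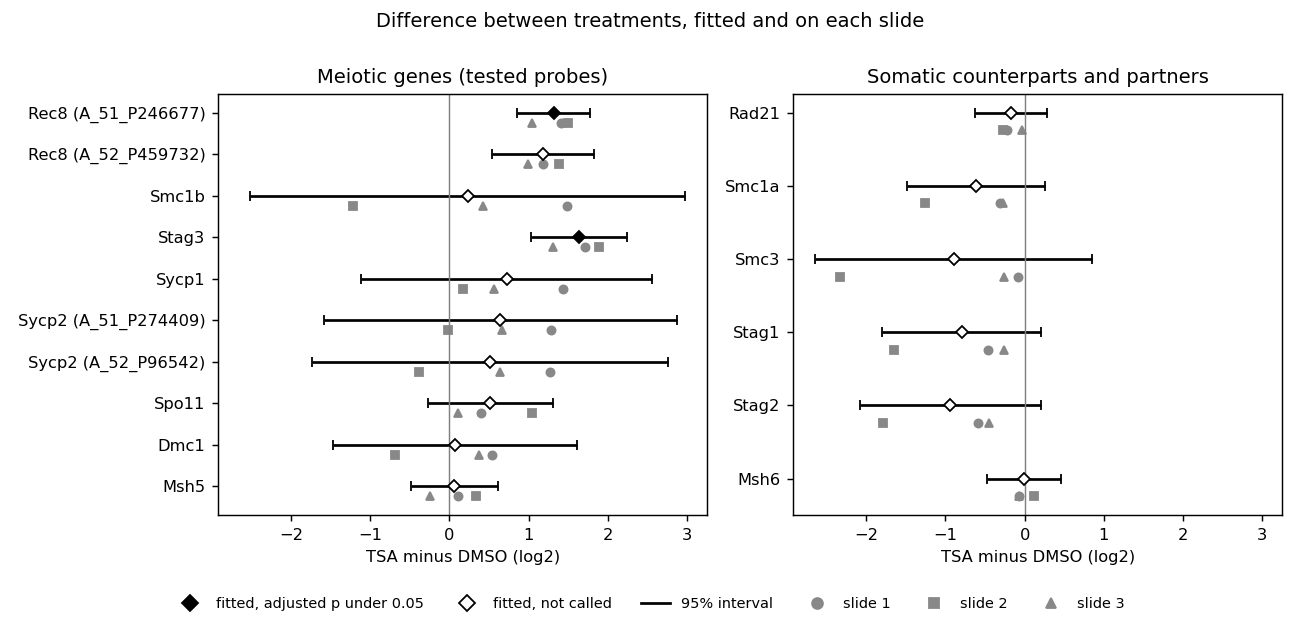
TSA minus DMSO on the log2 scale for the tested probes of the meiotic genes (left) and for 6 somatic counterparts and partners (right), with diamonds and bars for the fitted difference and its 95% interval, filled where the adjusted p was under 0.05, and grey symbols for each slide. Rec8 (1.31) and Stag3 (1.64) were called, while the slide 2 symbols of Smc1b (-1.21) and Dmc1 (-0.69) lie on the other side of 0 from slides 1 and 3.

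The members differed in how the second experiment compared with the others. In Smc1b, Sycp1, Sycp2 and Dmc1 the replicate 2 arrays were at least 1 log2 unit below the mean of replicates 1 and 3 in both treatments, 4 of the 8 tested genes, and 0.427% of all tested genes were so. This cut was set with the values known, so the count is a description. Replicate 2 was lower by 3.95 in TSA and 1.79 in DMSO for Smc1b (-3.95 and -1.79), and the deviations were -2.85 and -1.86 for Sycp2, -2.37 and -1.54 for Sycp1, and -2.16 and -1.02 for Dmc1. For Rec8 they were 0.17 and -0.10, for Stag3 -0.23 and -0.62, for Spo11 1.0 and 0.21 and for Msh5 0.48 and 0.07. The genes just inside and just outside the cut in DMSO were Dmc1 and Stag3.

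The DMSO deviations are the less usual ones on these arrays. TSA array 2 was at least 1 unit below the other TSA arrays in 11.5% of all tested genes, and DMSO array 2 was so against the other DMSO arrays in 0.688%. Over all tested genes the median deviation was 0.37 on TSA array 2 and 0.06 on DMSO array 2. The somatic counterparts and partners below were also low on TSA array 2 (median deviation -1.31, with 9 of 16 at least 1 unit lower) and not on DMSO array 2 (-0.16, with 0 of 16). Sycp1 and Sycp2 lay near background on the slide 2 arrays, while Smc1b and Dmc1 were well above it on all 6. The part of the dim TSA array 2 in these values was not tested, and whether TSA acts otherwise in that experiment cannot be told, since it holds 1 array per treatment. Without both arrays of slide 2, the differences of Smc1b, Sycp1, Sycp2 and Dmc1 were 0.95, 1.00, 0.97 and 0.45, all positive and none called (adjusted p of 0.166 to 0.288), again in a fit with 0 calls over all probes.

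**Figure D4:**
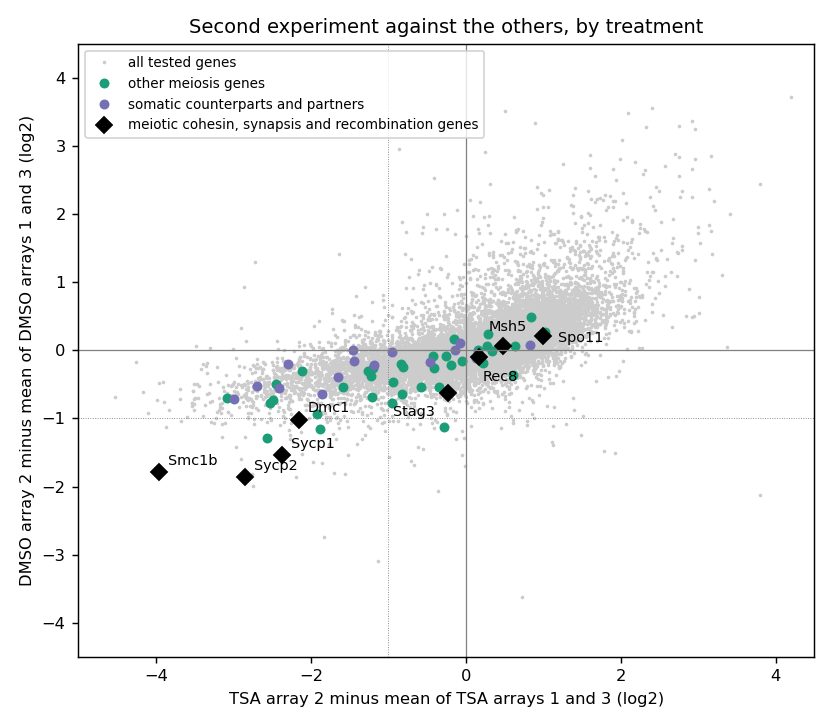
Deviation of replicate 2 from the mean of replicates 1 and 3, in TSA (horizontal) and DMSO (vertical), on the log2 scale, for all 14530 tested genes (grey), the 8 tested members (labelled), other meiosis genes and somatic counterparts, with dotted lines at -1. Smc1b, Sycp1, Sycp2 and Dmc1 lie below both lines, and the 16 somatic counterparts all lie above the line for DMSO, 9 of them left of the line for TSA.

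The promoters of Smc1b and Dmc1, the members that were well above background on all arrays and low in the second experiment, are shown for comparison with those of Rec8 and Stag3, from the same source, build, window and marking. They lie at chr15:85131928-85132207 (- strand) for Smc1b and chr15:79605080-79605359 (- strand) for Dmc1.
Smc1b: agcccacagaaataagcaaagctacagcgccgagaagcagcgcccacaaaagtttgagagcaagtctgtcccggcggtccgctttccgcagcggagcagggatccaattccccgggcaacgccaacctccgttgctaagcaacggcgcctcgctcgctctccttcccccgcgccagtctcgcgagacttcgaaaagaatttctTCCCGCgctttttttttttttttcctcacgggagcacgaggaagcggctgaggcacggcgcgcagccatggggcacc
Dmc1: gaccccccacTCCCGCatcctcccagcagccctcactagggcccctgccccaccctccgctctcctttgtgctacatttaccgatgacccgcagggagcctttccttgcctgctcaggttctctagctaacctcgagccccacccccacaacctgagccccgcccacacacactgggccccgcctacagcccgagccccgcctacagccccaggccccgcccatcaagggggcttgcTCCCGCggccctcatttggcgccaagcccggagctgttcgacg
Smc1b has 1 E2F core, which starts 47 bases before the gene start, and 28 CpG, and Dmc1 has 2 E2F cores, which start 240 and 13 bases before it, and 16 CpG. In CpG count Smc1b lies next to Stag3 and Dmc1 equals Rec8. Whether motifs or CpG count bear on the response to TSA was not tested.

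The somatic counterparts of the members did not pass the test in either direction. Of 16 tested genes on the list of somatic counterparts and partners, 0 rose and 0 fell, 3 had a higher mean in TSA, and the median difference was -0.53. Without TSA array 2, on which 9 of the 16 were low, 6 had a higher mean in TSA and the median was -0.10. Stag2 gave -0.94 ± 0.48 (limma, adjusted p = 0.522) and Stag1 -0.79 ± 0.42 (adjusted p = 0.539), and without TSA array 2 they gave -0.39 (adjusted p = 0.383) and -0.31 (adjusted p = 0.390). Rad21, the somatic kleisin, gave -0.17 ± 0.19 (adjusted p = 0.729). Smc1a gave -0.61 ± 0.36 (adjusted p = 0.588), Smc3 -0.89 ± 0.73 (adjusted p = 0.668) and Msh6 -0.01 ± 0.20 (adjusted p = 0.987). Without TSA array 2, Smc1a gave -0.22 (adjusted p = 0.578), Smc3 0.00 (adjusted p = 0.996) and Msh6 -0.06 (adjusted p = 0.887). In Smc3 the levels were 2.83, 0.07 and 2.68 on TSA arrays 1, 2 and 3, against 2.91, 2.40 and 2.94 on DMSO arrays 1, 2 and 3, and TSA minus DMSO was -0.08, -2.33 and -0.26 on slides 1, 2 and 3. The difference between the meiotic and the somatic genes was not itself tested.

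Other genes of meiosis were read from 7 lists, by step. Of 54 listed genes 41 had a probe and 36 were tested, and 1 rose and 0 fell, with 21 higher in mean and a median difference of 0.04. Over all tested genes 1.36% rose and 58% were higher in mean, with a median of 0.08, so these genes lay near the background. Without TSA array 2 the median of the 36 was 0.21 with 26 higher, and the matching values over all tested genes are not given here. The gene that rose was Rec114, a partner of Spo11 in break formation, at -0.13, -0.12 and -0.56 in TSA, against -2.07, -2.21 and -2.00 in DMSO. It rose by 1.82 ± 0.22, or 3.54-fold (limma, adjusted p = 0.0297), and the arrays of each treatment lay close together. The count over the 7 lists was 0 without any 1 array other than TSA array 2. Without TSA array 2 it was 4, made up of Rec114, Stra8, Meioc and Dazl. In that fit 571 of all 28160 tested probes rose and 54 fell. Mei1, another gene needed for breaks, gave 1.12 ± 0.23 (adjusted p = 0.0884) with all TSA arrays above all DMSO arrays, as in 16.3% of all tested genes. Of the 3 tested genes of this list the third, Iho1, gave 0.00 ± 0.38 and 0.41 without TSA array 2 (adjusted p = 0.357).

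None of the other 6 lists had a gene past the threshold. Of 4 tested genes of the synaptonemal complex, Syce1, a central element protein, had levels of 2.14, 0.71 and 1.69 in TSA, against 0.59, -0.15 and 0.49 in DMSO, and gave 1.21 ± 0.41 (adjusted p = 0.301). Tex12 of the same element gave 0.37 ± 0.34 (adjusted p = 0.688), and 0.64 without TSA array 2 (adjusted p = 0.283). Of 3 further cohesin and axis genes, Sgo2a, a protector of cohesin, gave -0.93 ± 0.71 (adjusted p = 0.653) and Trip13, an enzyme that remodels axis proteins, -0.18 ± 0.20 (adjusted p = 0.743), and without TSA array 2 they gave -0.09 (adjusted p = 0.909) and -0.11 (adjusted p = 0.791). Of 11 strand exchange genes, Meiob gave 0.75 ± 0.23 (adjusted p = 0.232) and Mnd1 -0.85 ± 0.32 (adjusted p = 0.371), the second at -0.53 without TSA array 2 (adjusted p = 0.251). The 6 crossover genes had a median of 0.02, with Mlh3 at -0.34 ± 0.38 (adjusted p = 0.735) and Mus81 at 0.27 ± 0.34 (adjusted p = 0.763). Both turned sign without TSA array 2, to 0.08 (adjusted p = 0.853) for Mlh3 and -0.07 (adjusted p = 0.888) for Mus81, with a list median of 0.09. Of 5 genes that fasten telomeres to the nuclear envelope, Terb1 gave 0.97 ± 0.62 (adjusted p = 0.608) and Terb2 0.58 ± 0.60 (adjusted p = 0.716), and without TSA array 2 they gave 1.59 (adjusted p = 0.130) and 1.22 (adjusted p = 0.161).

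Meiotic entry was represented by 4 tested genes with a median of 0.96, and of 1.66 without TSA array 2. Stra8, the retinoic acid target that starts meiosis, had levels of -1.87, -2.50 and -1.53 on TSA arrays 1, 2 and 3, against -3.79, -3.60 and -2.90 on DMSO arrays 1, 2 and 3. Its treatments did not overlap, and the difference of 1.47 ± 0.35 did not pass (limma, adjusted p = 0.138), although without TSA array 2 it was 1.73 (adjusted p = 0.0495). In the slide-blocked fit Stra8 gave 1.47 ± 0.23 and lay just short of the threshold (limma, adjusted p = 0.0535). Meioc, which acts on RNA in early meiosis, gave 1.36 ± 0.70 (adjusted p = 0.530), and 2.19 without TSA array 2, on which it was low (adjusted p = 0.0287). Among the 36 genes, 2 were at least 1 unit lower in replicate 2 in both treatments, as 0.427% of all tested genes were. They were Hormad1, an axis protein, and Terb1, beside Smc1b, Sycp1, Sycp2 and Dmc1 of the members. Both were dim. Hormad1 was above background on 2 TSA and 3 DMSO arrays, with replicate 2 levels of -4.85 in TSA and -3.71 in DMSO. Terb1 was above background on 2 TSA and 2 DMSO arrays, with replicate 2 levels of -6.10 and -6.59.

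**Figure D5:**
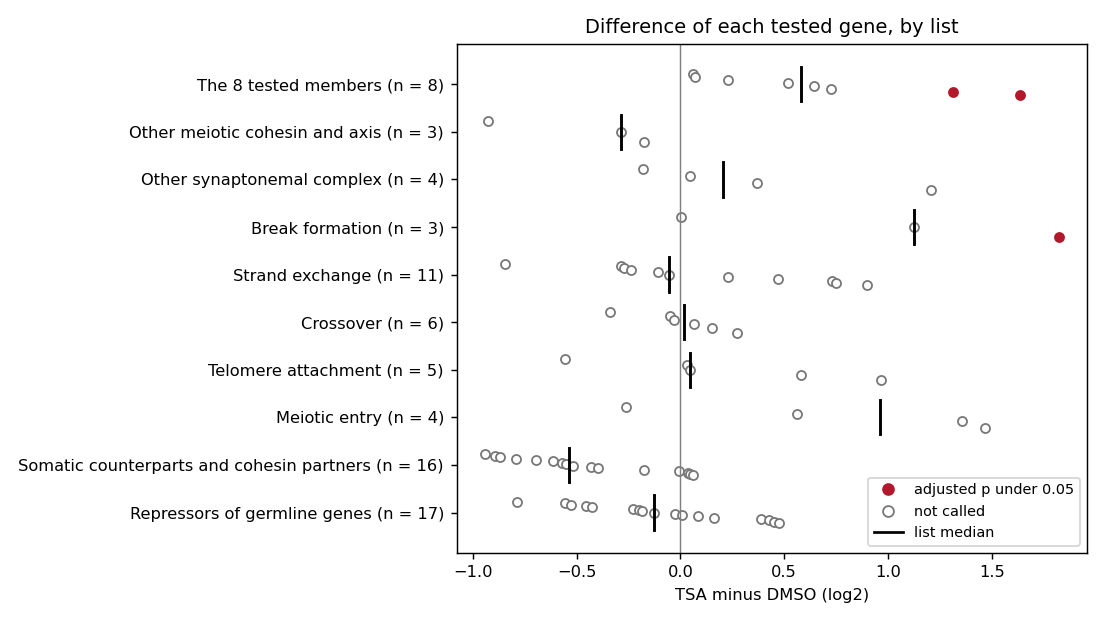
TSA minus DMSO on the log2 scale for each tested gene of the members, of 7 lists of other meiosis genes, of the somatic counterparts and of repressors of germline genes, with a line at each list's median and filled red points for adjusted p under 0.05. Filled points are Rec8 and Stag3 among the members (median 0.58) and Rec114 in break formation, and the somatic counterparts lie mostly below 0 (median -0.53).

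Genes of the complexes that are known to repress germline genes were all measured and none passed the test. Of 17 tested, 7 had a higher mean in TSA, the median difference was -0.13, and the range was -0.79 to 0.47. Dnmt3a, a DNA methyltransferase, gave 0.45 ± 0.22 (limma, adjusted p = 0.515) and Pcgf6, a subunit of the polycomb complex that holds Mga, gave -0.56 ± 0.29 (adjusted p = 0.531), and -0.30 without TSA array 2 (adjusted p = 0.480). The median deviation of this list in replicate 2 was 0.11 in TSA and -0.14 in DMSO.

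Markers of the labelled cell type were present. All 6 epiblast and pluripotency genes, Dnmt3b and Pou5f1 among them, were above background on all 6 arrays, as were 4 of 5 neural progenitor genes, with 0 genes called in either list. Their summed levels, in multiples of the 75th percentile, were 58.0 to 90.0 in TSA and 67.6 to 114 in DMSO for the epiblast list and 5.72 to 6.89 in TSA and 7.66 to 9.10 in DMSO for the neural list. Of 8 germ cell genes outside meiosis, 7 were above background on all arrays and Dazl on 5, and the summed level of the list was 7.99 to 11.5 in TSA and 4.32 to 5.97 in DMSO. One of them, Mael, a gene of the piRNA pathway, rose (1.78 ± 0.27, limma, adjusted p = 0.0478), while Ddx4, the germ cell RNA helicase, gave -0.64 ± 0.66 (adjusted p = 0.716), and 0.12 without TSA array 2 (adjusted p = 0.872). Without Mael the summed level was 3.69, 3.45 and 5.09 on TSA arrays 1, 2 and 3, against 2.47, 2.90 and 3.91 on DMSO arrays 1, 2 and 3, and the treatments overlapped.

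Of 6 oocyte genes, Zp1 and Zp2 were above background on 0 arrays, and Nobox was above it on all 3 TSA arrays and 0 DMSO arrays, at least 4.45-fold higher in TSA. It passed the filter through the TSA arrays alone, so its adjusted p by limma (0.0314) is no independent support. That bound sets the TSA mean against the dimmest signals called above background on the DMSO arrays. The summed level of the oocyte list was 0.345 to 0.528 in TSA and 0.208 to 0.355 in DMSO. Of 5 spermatid genes, Acrv1 was above background on 0 arrays and 4 were above it on all, with summed levels of 0.393 to 1.20 in TSA and 0.350 to 0.562 in DMSO. The fibroblast list had summed levels of 10.3 to 14.4 in TSA and 4.75 to 7.24 in DMSO, with 0 of 5 genes called. Col1a2, a collagen, was called in the slide-blocked fit (1.77 ± 0.26, limma, adjusted p = 0.0473) and not in the unblocked fit (1.77 ± 0.33, adjusted p = 0.0746). The summed fibroblast level, and with Mael the germ cell level, were thus higher on every TSA array than on every DMSO array, and the neural level was lower. Such sums lean on the brightest gene, Thy1 (0.87 ± 0.34) for fibroblasts and Nes (-0.38 ± 0.20) for the neural list, neither called. Of the 5 fibroblast genes 4 had a higher mean in TSA, and Postn, near background, was lower (-0.84, and -0.55 without TSA array 2). Of 4 tested neural genes 1, Sox1, was higher (0.25), and without TSA array 2 it was at -0.03 and 0 of the 4 were higher. The largest neural difference was that of Pax6, -1.21 ± 0.24, which was not called (limma, adjusted p = 0.0815). The part of these summed levels in the rises of Rec8 and Stag3 was not tested.

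The genes whose levels over the 6 arrays were most like those of Rec8 were Padi2, Nrsn1, Gimap9, Slc26a2 and Tmsb15a, with Pearson correlations of 0.997 to 0.999 over 6 arrays, against a median of 0.18 for all tested genes. For Stag3 they were Timm8a2, Anpep, Pgpep1l, Itgae and Nfic, with 0.995 to 0.999, against a median of 0.05. These values describe 6 arrays that share 3 slides and 2 treatments. They were picked for this likeness to genes higher in TSA, so no test of their own difference is given.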

How the data were processed

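Gene expression was measured in 3 TSA and 3 DMSO samples, each on 1 single-colour (Cy3) Agilent array. Per the file headers, each deposited array file holds intensity measurements made by Agilent Feature Extraction (10.7, per the submitters' processing notes), background-subtracted and detrended within the array and not scaled between arrays. The authors' deposited series table holds log2 values whose normalization is not given in the sources used here; its 6 columns have medians of 6.31 to 6.34 and a shared maximum of 19.1, and it served as an alternative.

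Control spots were dropped, as were the 57 to 84 spots per array that the scanner software marked as outliers, the log2 of the processed signal minus that of the array's 75th percentile was taken, and spots of a probe were averaged. The arrays hold 41174 probes, and 28160 of them, those well above background on 3 or more arrays, were tested. Names came from matching RefSeq identifiers to the reference table, which gave 27484 probes a single gene, left 13690 unnamed and gave 0 more than 1 gene. A gene stands for its tested probe with the highest mean, which covered 14530 genes. A tested probe that lacked a value on an array (23 probes, none of them a member's) was fitted on the others. The array annotation follows another genome build than the reference table, so only promoter positions of the table itself are printed.

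TSA was compared with DMSO by limma 3.58.1 under R 4.3.3 (a two-sided moderated test from lmFit and eBayes), and p-values were adjusted by Benjamini-Hochberg across the tested probes, with 0.05 as the threshold. Errors after ± are moderated standard errors unless named SD, with 3 arrays per treatment, and the spread behind the p-values is that between the independent experiments of the design. The fit was also run on simulated data with independent arrays. Those data had neither the slide pairing nor an array like TSA array 2, so they do not bear on the calls here. The replicate number is also the slide. Deviations of TSA and DMSO arrays of the same number correlated at 0.484, 0.614 and 0.585, so the numbers pair the samples. Errors, intervals and adjusted p-values without a block thus also count spread that both arrays of a slide share. Slide-blocked values are printed if a call or count changes, and for Smc1b, Sycp1, Sycp2, Dmc1, Syce1 and Stra8. The bound for Nobox divides its TSA mean by the DMSO mean of, per array, the dimmest signal called well above background or its own signal, whichever was higher. The genes named are all members, the somatic counterparts, from each meiosis list the genes past the threshold and the 2 with the smallest adjusted p, from each marker list those past the threshold and the 2 brightest, and the 5 genes most alike to each member that rose (skipping clone and predicted-gene symbols); not all of them are reported here. Hormad1, Iho1, Ddx4, Dazl, Zp1, Zp2, Acrv1, Col1a2, Postn, Sox1 and Pax6 were named after their values were seen. The members and lists were chosen with earlier results of these data known. Alternatives were other background corrections, scalings, filters and moderation, the slide block, array weights, the authors' table, and arrays left out. The germ cell sum without Mael was added after seeing the data. Files were read with pandas 2.3.3 and numpy 2.4.6, and figures drawn with matplotlib 3.10.9, under Python 3.11.15.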

Additional observations from a re-analysis of the deposited data

How the results depend on the processing

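Both member calls were near the threshold, and the number of members called was 2 with normexp, the stricter filter, the slide as a block, the intensity trend, outlier spots kept and array weights. It was 1 with quantile normalization and the authors' table, 0 with median centring, no filter or both arrays of slide 2 left out, and 0 to 2 with single arrays left out. Stag3 gave 1.65 (adjusted p = 0.0634) with quantile normalization, 1.56 (0.0682) with median centring, 1.63 (0.0528) with the authors' table, 1.64 (0.0931) with no filter and 1.51 (0.0570) without slide 2, and 1.43 to 1.79 with single arrays left out. Rec8 (A_51_P246677) gave 1.23 (0.0733) with median centring, 1.31 (0.0988) with no filter, 1.22 (0.0644) without slide 2 and 1.26 to 1.39 with single arrays left out. The slide as a block changed no member's call. The count of other meiosis genes called was 1, against 0 with no filter or without slide 2, 7 with array weights and 0 to 4 with single arrays left out. The median over the tested members was 0.58, against 1.28 with array weights, 1.35 on slide 1 alone and 0.11 to 1.39 with single arrays left out.

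Over all probes, 259 were higher and 10 lower in TSA. The higher ones numbered 127 with normexp, 148 with quantile normalization, 137 with median centring, 142 with the authors' table, 56 with no filter, 618 with the slide as a block, 1348 with array weights and 0 without slide 2. The lower ones numbered 0 with no filter, 41 with the block, 299 with array weights and 0 without slide 2. Single arrays left out gave 0 to 571 higher and 0 to 54 lower probes by limma; leaving out any array but TSA array 2 gave 0 calls, and between 2006 and 3327 probes then had an unadjusted p under 0.05, as 5006 had without slide 2.

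Signs turned for members that were not called. On slide 2 alone Sycp2, not above background on TSA array 2, gave -0.013 and -0.38 (A_52_P96542), Smc1b -1.21 and Dmc1 -0.69, and Dmc1 gave -0.0081 with median centring. Msh5 gave -0.040 with normexp, -0.054 with quantile normalization, -0.017 with median centring, -0.038 with the authors' table, -0.074 without slide 2, -0.11 with array weights and -0.25 on slide 3 alone. With single arrays left out, Sycp2 gave -0.084 to 1.59 and -0.17 to 1.54 by probe, Smc1b -0.58 to 1.55, Dmc1 -0.35 to 0.79 and Msh5 -0.10 to 0.23. The cause was not tested. The number of arrays limits all of these, and signals near background limit Sycp1, Sycp2, Spo11 and Msh5. The normexp alternative used median spot signals.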
